A study of Mus musculus with 12 samples.

Results

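Cluster 6 Teff cells are CD8+ T cells of the spleen that were sorted as CD44hi and PD1- effector cells (Teff) and that the deposited cell table places in cluster 6. They numbered 1868, of 53940 Teff cells and 100540 cells in all. The control Teff library held 569 of them and the anti-CD137 Teff library 1299. All mice were wild-type C57BL/6. In 1 group, 5 mice received 10 µg of anti-CD137 (clone 3H3), an agonist antibody to a costimulatory receptor of activated T cells. In the other, 10 mice received 100 µg of a control immunoglobulin (clone HRPN), so the antibody doses and the numbers of mice differed. Both were given for 14 days with 2 injections a week. The other sorted subsets were precursor exhausted cells (Tpex; CD44hi, PD1+, Slamf6+, Tim3-) and exhausted cells (Tex; CD44hi, PD1+, Slamf6-, Tim3+). Each subset and treatment gave 1 gene expression library and 1 T cell receptor (TCR) library. Cells could not be tied to single mice, so clones of several mice lie together in each library, and differences between the treatments are differences between single libraries.

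A TCR pairs 2 chains, alpha (TRA) and beta (TRB). Each is assembled in the thymus from a V and a J segment, with a D segment between them in TRB, and bases are trimmed and added where the segments join. The joined stretch, CDR3, contacts the peptide that the receptor sees. All descendants of a T cell keep its CDR3s, so cells with the same pair of nucleotide CDR3s are counted here as a clonotype. A clonotype with at least 2 cells in the same Teff library is called expanded. Expansion follows the division of a cell after it meets antigen, and PD1, Slamf6 and Tim3 mark stages of T cells that have been stimulated for a long time.

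Both chains were found in 361 control (63.4%) and 860 anti-CD137 cells (66.2%) of cluster 6 Teff, which are called paired. They carried 292 and 572 clonotypes, of which 256 and 454 had 1 cell in cluster 6. The receptors below are the largest clonotypes of cluster 6, with those found in both PD1+ subsets that the results turn on. They are numbered by their rank in cells of cluster 6 within a treatment. Each CDR3 is written 5′ to 3′ as deposited, in lower case where it matches the end of its V or the start of its J segment in the transcripts of GENCODE M21 (GRCm38). Capitals mark the bases between these matches, where D bases and added bases lie. The segment that the files call TRBV10 is listed as a pseudogene there, and 0 of 4498 TRBV10 contigs begin their CDR3 with 12 bases of its end. Those of Trbv4, which no contig was assigned to, begin 3852 of them. The name is therefore uncertain, and no capitals are marked in TRBV10 chains.
Control 1, TRBV15 and TRBJ2-7: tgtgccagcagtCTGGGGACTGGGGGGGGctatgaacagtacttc
Control 1, TRAV16D-DV11 and TRAJ26: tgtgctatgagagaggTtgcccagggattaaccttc
Control 2, TRBV12-2+TRBV13-2 and TRBJ1-2: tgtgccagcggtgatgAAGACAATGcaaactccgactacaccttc
Control 3, TRBV12-2 and TRBJ2-1: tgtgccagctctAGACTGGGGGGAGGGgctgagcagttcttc
Control 4, TRBV19 and TRBJ2-7: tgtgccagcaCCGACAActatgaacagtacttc
Control 7, TRBV12-2+TRBV13-2 and TRBJ1-2: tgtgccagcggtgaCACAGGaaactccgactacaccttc
Control 18, TRBV2 and TRBJ2-1: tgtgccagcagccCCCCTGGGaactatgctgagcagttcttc
Control 18, TRAV6-7-DV9 and TRAJ43: tgtgctctgagGaacaatgccccacgattt
Anti-CD137 1, TRBV10 and TRBJ2-1: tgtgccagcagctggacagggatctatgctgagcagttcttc
Anti-CD137 1, TRAV7-4 and TRAJ31: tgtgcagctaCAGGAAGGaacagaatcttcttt
Anti-CD137 2, TRBV12-1 and TRBJ2-1: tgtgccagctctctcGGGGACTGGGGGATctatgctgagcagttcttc
Anti-CD137 2, TRAV17 and TRAJ34: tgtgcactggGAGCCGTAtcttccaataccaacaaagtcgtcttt
Anti-CD137 3, TRBV13-1 and TRBJ1-6: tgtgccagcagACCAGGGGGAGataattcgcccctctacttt
Anti-CD137 4, TRBV12-2 and TRBJ1-5: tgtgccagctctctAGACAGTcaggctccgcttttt
Anti-CD137 5, TRBV12-2+TRBV13-2 and TRBJ2-7: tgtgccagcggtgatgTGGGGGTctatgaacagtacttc
Anti-CD137 9, TRBV5 and TRBJ1-4: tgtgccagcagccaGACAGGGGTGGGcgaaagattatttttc
Anti-CD137 9, TRAV12D-3 and TRAJ12: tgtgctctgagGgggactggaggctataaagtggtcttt
Anti-CD137 16, TRBV17 and TRBJ2-4: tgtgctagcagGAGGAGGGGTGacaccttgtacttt
Anti-CD137 16, TRAV3N-3 and TRAJ22: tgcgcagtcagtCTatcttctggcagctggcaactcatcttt

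Cluster 6 was almost wholly a Teff cluster. Of its 1951 cells, 95.7% came from the Teff libraries, and the PD1+ libraries held 83, of which 56 were control Tpex cells. It took 2.20% of control Teff cells and 4.63% of anti-CD137 Teff cells, and was above the control also when paired cells were counted once per clonotype and cluster, at 2.89% against 1.70%. Cluster 6 cells were shallower than most Teff cells. Their median count of unique molecular identifiers (UMIs) was 2672 (control) and 2835 (anti-CD137), against 4231 and 4056 in clusters 0 and 2, which held 89.4% and 87.7% of the Teff libraries. Cluster 0 alone had medians of 3354 and 3264 UMIs. Ribosomal protein genes gave a median of 21.1% and 20.4% of UMIs in cluster 6 and 37.6% and 38.8% in clusters 0 and 2. The median was 27.6% and 26.3% in Teff cells of cluster 1, and 19.1% and 20.8% in the few of cluster 3. In the few of cluster 4 it was 14.7% and 18.9%, and in cluster 8 it was 9.76% and 6.8%. A low ribosomal share was therefore not particular to cluster 6. These columns come from the gene values that made the clusters, so they describe cluster 6 and do not test it. No gene values per cell were used here, so the sort markers could not be checked against RNA.

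Total RNA UMIs per library ranged from 31252414 to 126261864. Barcodes in common between any 2 libraries made up at most 4.17% of the smaller one. Among cluster 6 Teff cells, 24 control and 57 anti-CD137 cells had a barcode that also occurred in a PD1+ library of their treatment, and 0 of them had the same TRB there. In 1 of the libraries searched, a recurring TRB came with the same TRA less often than in the others. Among paired cells whose TRB recurred in their library, the other cells with that TRB had the same TRA in 41.6% of cases in anti-CD137 Tpex, against 91.9% in control Tpex and 95.7% and 89.7% in control and anti-CD137 Tex. Within cluster 6 it was 91.2% (control) and 85.1% (anti-CD137), and among the other Teff cells 31.1% and 33.5%. Cell numbers and clone sizes were not matched between these groups, so a low share does not by itself show faulty pairing.

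The first question was how far the label of clonal expansion held in cluster 6. In the control cluster 6, 121 of 361 paired cells were in expanded clonotypes, or 33.5% (exact Clopper-Pearson 95% interval 28.7 to 38.6%). With anti-CD137 they were 455 of 860, or 52.9% (49.5 to 56.3%). Intervals here cover counting error only and are too narrow in so far as cells of 1 clone come together. In clusters 0 and 2 the share was 2.80% (control) and 1.37% (anti-CD137). In cluster 1, where most Tpex cells lay, 12.8% and 25.5% of Teff cells were expanded. Cluster 6 thus stood above clusters 0, 1 and 2 in both libraries, with no overlap of intervals. It did not stand above the few Teff cells of clusters 3 and 4. With anti-CD137, 26 of 44 (59.1%, 43.2 to 73.7%) and 13 of 17 (76.5%, 50.1 to 93.2%) of these were expanded, and in the control 2 of 3 and 3 of 7. In the control 240 of the 361 paired cells still carried a receptor seen once, so most control cluster 6 cells were not measurably expanded at this depth. Among cells with more UMIs than the median of their library, of which cluster 6 has few, the expanded share was 13.4% and 38.3%. Clone size was then counted among these cells only, which by itself leaves fewer cells per clone.

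**Figure D1:**
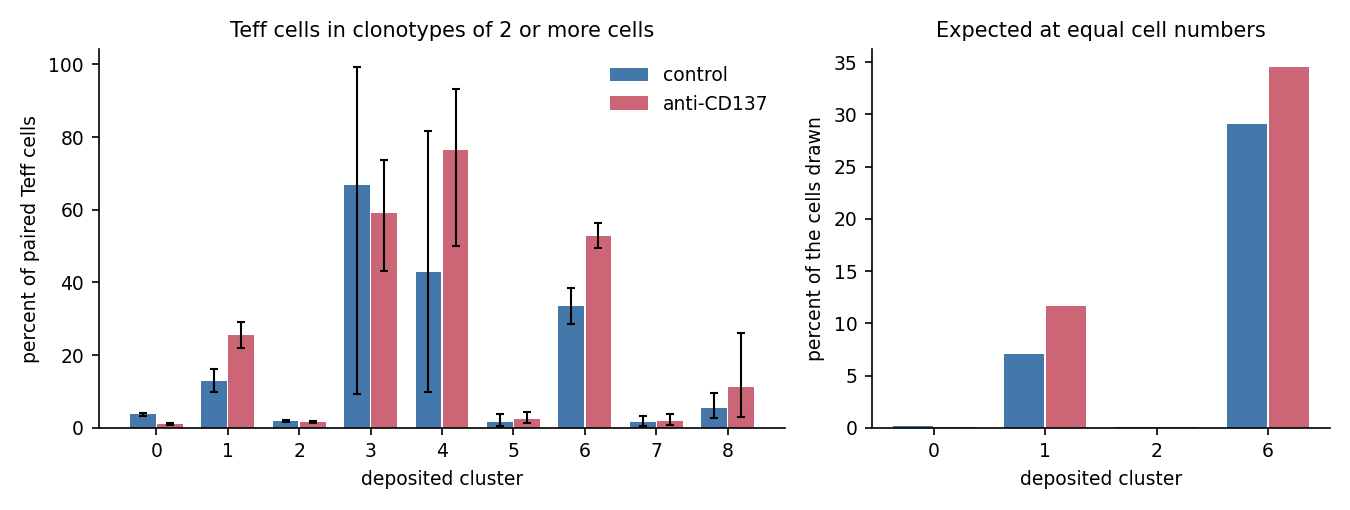
Left, percent of paired Teff cells (y axis) in clonotypes of 2 or more cells, by deposited cluster (x axis) and treatment, with exact 95% intervals; clusters 3 and 4 hold only 3 and 7 paired control Teff cells, and with anti-CD137 they lie at 59.1% and 76.5%, above cluster 6. Right, the same within clusters 0, 1, 2 and 6 as the expected value after drawing 361 paired cells from each; of these 4 cluster 6 is highest, at 29.1% and 34.5%.

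The treatments differed in how many cluster 6 cells were sampled, and more cells of a clone are found when more are sampled. After drawing 361 paired cells from each cluster 6, with size counted in the draw, the expected expanded share was 29.1% (control; 24.5 to 34.1%) and 34.5% (anti-CD137; 29.7 to 39.8%). These intervals overlap, where those of the undrawn shares do not. At the same number of cells, cluster 1 gave 7.10% and 11.7%, and clusters 0 and 2 at most 0.162%.

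Seen from the clones, cluster 6 held 121 of 646 expanded control Teff cells (18.7%, 15.8 to 22.0%) and 455 of 914 expanded anti-CD137 Teff cells (49.8%, 46.5 to 53.1%). The share grew with clone size. It was 8.23% (control) and 29.2% (anti-CD137) among clonotypes of 2 Teff cells. Among those of 5 or more it was 59.6% (34 of 57 cells, 8 clonotypes) and 70.9% (229 of 323 cells, 42 clonotypes). Cells of clonotypes seen once were in cluster 6 in 1.43% and 2.10% of cases. The order of the treatments was the same in each size class, and the intervals were apart for clonotypes of 1 and of 2 cells and overlapped for larger ones. For 5 or more they were 45.8 to 72.4% and 65.6 to 75.8%. By TRB alone, cluster 6 held 9.08% and 29.8% of expanded Teff cells, and with at least 3 cells asked for 50.6% and 67.6%.

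Some expanded clones had Teff cells in both cluster 6 and cluster 1, namely 20 control and 63 anti-CD137 clonotypes. A cluster 6 cell was present in 52 of 284 expanded control clonotypes and in 167 of 305 with anti-CD137, and 25 and 66 of these had all their Teff cells in cluster 6. The cluster 6 clonotypes had 44 (control) and 171 (anti-CD137) further Teff cells. Cluster 1 held 31 (70.5%) and 99 (57.9%) of them, although it held only 2.80% and 3.10% of all paired Teff cells outside cluster 6. Cluster 2 held 5 (11.4%) and 31 (18.1%) of them, against 46.2% and 50.3% of all paired Teff cells outside cluster 6. With anti-CD137, another 18 and 12 lay in clusters 3 and 4, the clusters of most Tex cells. These clusters held 0.227% and 0.0877% of all paired anti-CD137 Teff cells outside cluster 6.

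The largest clones of cluster 6 were modest in size. Control 1 (TRBV15) had 10 cells in cluster 6, 3 in other Teff clusters and 0 in Tpex and Tex. Control 2 had 6 cluster 6 cells and control 3 had 6, and both had 0 cells in Tpex and Tex. Control 4 (TRBV19) had 4 cells in cluster 6, 2 in Tpex and 1 in Tex, and control 5 (TRBV13-1) had 4 in cluster 6 and 0 in Tpex and Tex. Of these 5, only control 4 was seen outside Teff. The 10 largest control clonotypes made up 12.7% of the paired cluster 6 cells.

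With anti-CD137 the 10 largest made up 11.2%. Anti-CD137 1 (TRBV10) had 12 cells in cluster 6 and 7 in other Teff clusters, 5 of them in cluster 3. Anti-CD137 2 (TRBV12-1) and 3 (TRBV13-1) had 11 cluster 6 cells each, anti-CD137 4 (TRBV12-2) had 10, and anti-CD137 5 (TRBV12-2+TRBV13-2) had 9 beside 14 in cluster 1. None of these 5 was found in the paired cells of Tpex or Tex. A count of 0 allows a share of up to 0.0671% of the anti-CD137 Tpex library and 0.0636% of the anti-CD137 Tex library (3 counts of the paired cells). In the control these limits were 0.0299% and 0.0386%. The TRBs of the 5 largest were also looked for at all barcodes of these libraries, paired or not and in the cell table or not. They occurred at 1 barcode in all, a Tpex barcode outside the cell table with the TRB of anti-CD137 2.

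**Figure D2:**
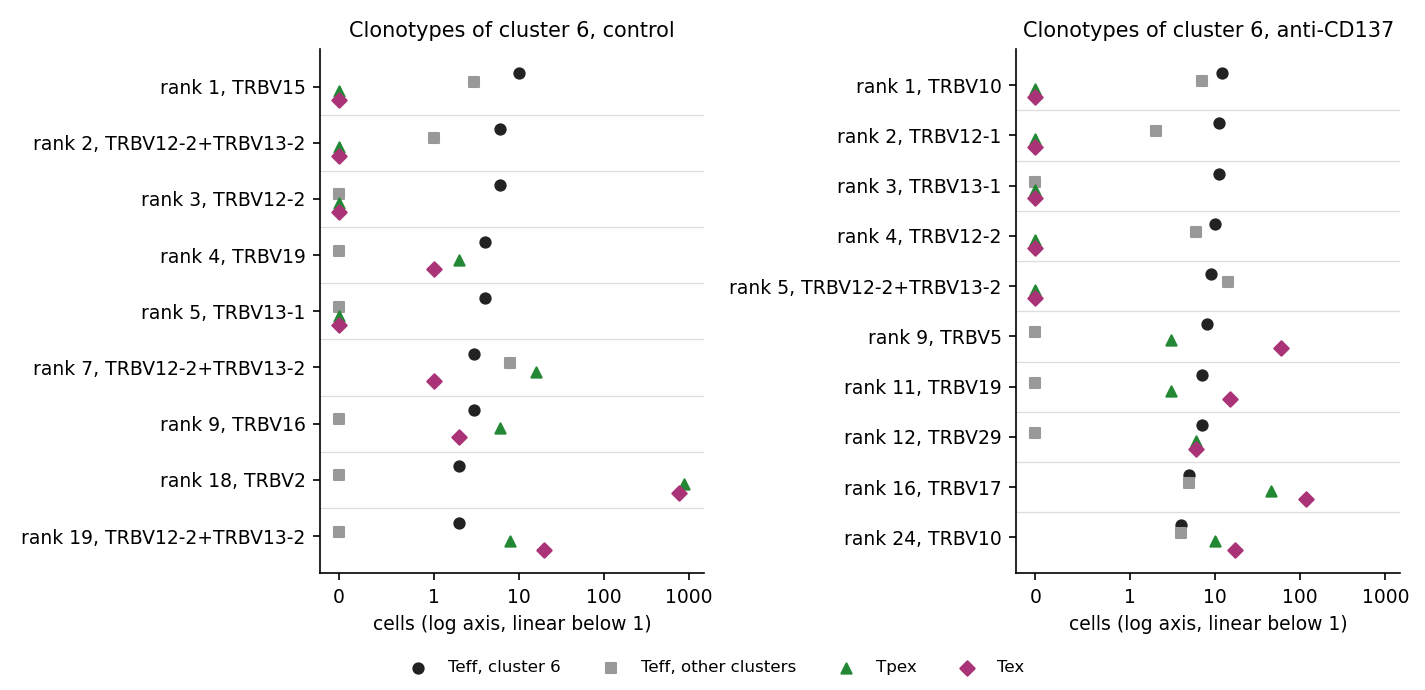
Cells (x axis, log scale that is linear below 1) of the named clonotypes in cluster 6 of Teff, the other Teff clusters, Tpex and Tex, 1 row per clonotype with its rank in cluster 6 and its TRBV segment, for the control (left) and anti-CD137 (right). The 5 largest with anti-CD137 have 0 cells in Tpex and Tex, while rank 18 of the control has 869 and 762.

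The next question was how many cluster 6 cells had relatives in the PD1+ subsets. In the control, the Tpex library held the clonotype of 58 of 361 paired cells (16.1%, 12.4 to 20.3%) and the Tex library that of 30 (8.31%, 5.68 to 11.7%). With anti-CD137 these were 98 of 860 (11.4%, 9.35 to 13.7%) and 112 (13.0%, 10.8 to 15.5%). At least 1 of the subsets held the clonotype of 67 control cells (18.6%) and 131 anti-CD137 cells (15.2%), and both held it for 21 and 79. In Tpex and Tex of the other treatment, which came from other mice, 0 cluster 6 cells of either treatment had their clonotype. The count was 0 for the other Teff cells too, so it cannot measure a background between libraries of the same treatment. Of Teff cells in clusters 0 and 2, 0.0512% and 0.0560% had a clonotype in either PD1+ subset of their own treatment. In cluster 1 of Teff the share was 12.3% (9.53 to 15.6%) and 8.50% (6.39 to 11.0%), below cluster 6 in both libraries. The intervals of the 2 clusters overlapped in the control, where cluster 6 had 14.7 to 23.0%, and not with anti-CD137, where it had 12.9 to 17.8%.

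**Figure D3:**
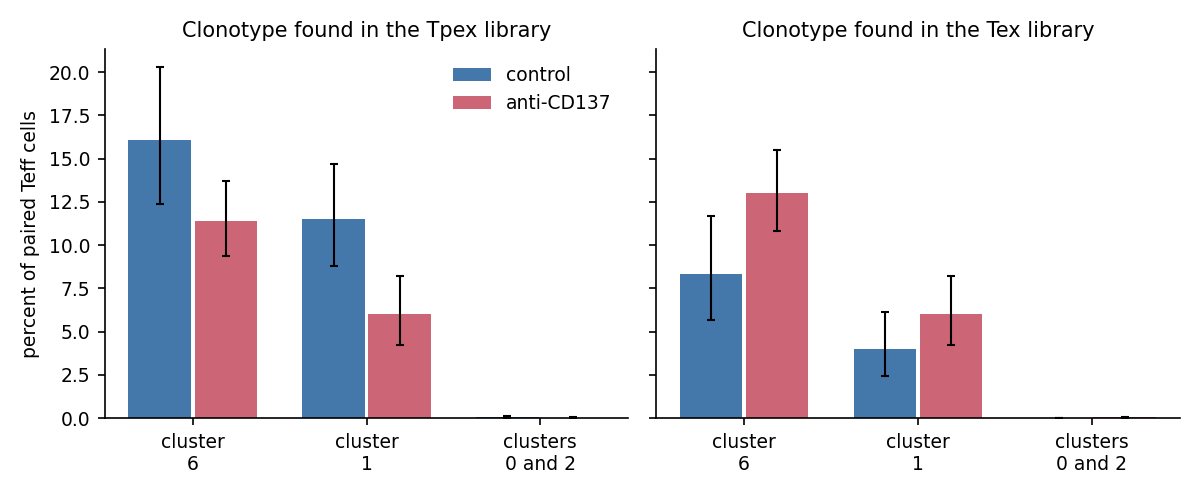
Percent of paired Teff cells (y axis) whose clonotype was also found in the Tpex library (left) or the Tex library (right) of the same treatment, for cluster 6, cluster 1 and clusters 0 and 2, with exact 95% intervals. Cluster 6 of the control lies at 16.1% and 8.31%, and that of anti-CD137 at 11.4% and 13.0%.

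The order of the treatments depended on the subset searched and on the setting. The share found in Tpex was lower with anti-CD137 and the share found in Tex higher, with overlapping intervals in both. The Tpex difference was absent by TRB alone, at 18.6% and 18.7%, and with equal numbers of paired cells in the searched libraries, at 11.0% and 11.4%, where UMIs per cell were not matched. With the same equal numbers the Tex shares were 6.66% and 12.8%, with intervals apart. They were apart also without Teff cells whose barcode occurred in a PD1+ library, at 7.14% and 13.0%. The anti-CD137 Tpex library had both chains in 33.8% of its cells, against 78.0% in control Tpex, and the low share with the same TRA given above. The part of these in the difference was not tested. By TRB alone the Tex shares were 9.43% (control) and 15.3% (anti-CD137), and their intervals did not overlap. Counted once per clonotype in place of cells, the Tex shares were 6.51% and 9.79%, with overlapping intervals. The Tex intervals were apart in 3 of 12 alternatives. Among cells above the median UMI count in each library, fewer cluster 6 cells were found again, 7.22% and 2.48% in Tpex and 5.15% and 3.19% in Tex, so the order in Tex turned. With chains of at least 5 TRB and 3 TRA UMIs, 17.7% and 5.40% were found in Tpex, with intervals apart, and 9.71% of each in Tex.

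Sharing was more frequent among clonotypes with several cluster 6 cells than among those with 1. In the control, 33 of 256 clonotypes with 1 cluster 6 cell (12.9%, 9.04 to 17.6%) were found in Tpex or Tex, and 9 of 17 with 3 or more (52.9%, 27.8 to 77.0%). With anti-CD137 these were 40 of 454 (8.81%, 6.37 to 11.8%) and 14 of 54 (25.9%, 15.0 to 39.7%). The intervals did not overlap in either treatment. The largest clones were not the most shared with anti-CD137: 6 of 23 with 5 or more cluster 6 cells were found in a PD1+ subset, but only 1 of the 10 largest. In the control 5 of the 10 largest were found there, and 0 of the 3 with 5 or more cells. A larger clone has more cells with which to be found, and these counts were not adjusted for it.

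The clones found in both PD1+ subsets differed widely in where most of their cells lay. Control 18 (TRBV2, TRAV6-7-DV9) had 2 cells in cluster 6, 869 in Tpex and 762 in Tex, which were 8.65% and 9.80% of the paired cells there. It made up 869 of the 1003 Tpex cells and 762 of the 906 Tex cells that carried any control cluster 6 clonotype. Control 7 (TRBV12-2+TRBV13-2, TRAV8N-2) leaned to Tpex, with 3 cells in cluster 6, 8 in cluster 1 of Teff, 16 in Tpex and 1 in Tex. Control 9 (TRBV16) had 3, 6 and 2 cells in cluster 6, Tpex and Tex, and control 19 (TRBV12-2+TRBV13-2) had 2, 8 and 20.

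Of the 5 named shared anti-CD137 clones, 4 had more paired cells in Tex than in Tpex. By TRB this order held for these 4 within the cell table, but not for all of them with barcodes outside it. Anti-CD137 9 (TRBV5, TRAV12D-3) had 8 cells in cluster 6, 3 in Tpex and 60 in Tex. Anti-CD137 16 (TRBV17, TRAV3N-3) had 5, 46 and 116, with 4 more in cluster 1 of Teff, and took 2.46% of paired Tex cells. Anti-CD137 11 (TRBV19) had 7, 3 and 15, and anti-CD137 24 (TRBV10) had 4, 10 and 17. Anti-CD137 12 (TRBV29, TRAV10) had 7, 6 and 6. The Tpex counts depended on whether both chains were asked for. The TRB of anti-CD137 16 was seen at 91 Tpex barcodes in the cell table, against 46 cells by both chains. Whether barcodes with the TRB alone are cells of the clone was not tested. A further 390 Tpex barcodes outside the cell table carried the TRB of anti-CD137 16. In Tex 138 barcodes in the table and 87 outside did, so with the barcodes outside its order turned to Tpex. The TRB of anti-CD137 24 turned likewise, with 17 and 27 barcodes in Tpex against 22 and 4 in Tex, in and outside the table. That of anti-CD137 12 was at 17 and 57 against 8 and 4.

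Relatives of cluster 6 cells within the PD1+ libraries lay mostly in the main cluster of each library. In control Tpex 890 of 1003 such cells (88.7%) were in cluster 1, which held 87.7% of all paired Tpex cells, and with anti-CD137 157 of 164 (95.7%), against 82.7%. In cluster 5 of anti-CD137 Tpex they were fewer, 3.05% against 13.8% of all. In Tex they were mostly in cluster 3 in the control, 787 of 906 (86.9%, against 90.0% of all), and in cluster 4 with anti-CD137, 361 of 460 (78.5%, against 76.5%). The control values rest on control 18, which gave 769 of the 890 Tpex cells in cluster 1 and 673 of the 787 Tex cells in cluster 3. Among 1003 and 164 such Tpex cells, 7 control and 0 anti-CD137 cells were themselves in cluster 6, and of the Tex cells 0 in both treatments.

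V and J segments were compared once per clonotype between cluster 6 and the other Teff cells of the same library. A segment was called where its shares differed by a factor of at least 1.5, the 95% intervals did not overlap and it reached 1% in either population. In the control 3 of 120 segments (2.5%) were called higher in cluster 6 and 0 of 120 (0%) lower. With anti-CD137, 2 of 116 (1.72%) were called higher and 0 of 116 (0%) lower. So few calls, with no replicate library, are given as a description. Counted over cells, where single large clones weigh more, 11 (control) and 12 (anti-CD137) segments were called. How many segments reached 1% over cells was not recorded, so these counts lack a share and are not read as a result about cluster 6. The sources used here do not say whether TCR segment genes took part in the clustering.

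TRBV19 (chr6:41178375-41179048 of GRCm38, plus strand, a functional V gene) was called in both treatments. It was used by 29 of 292 control clonotypes (9.93%, 6.75 to 14.0%) against 5.75% of other Teff clonotypes (5.40 to 6.11%). With anti-CD137 it was used by 50 of 572 (8.74%, 6.56 to 11.4%) against 5.76% (5.43 to 6.10%). The ratio with anti-CD137, 1.52, lay just above the factor asked for. Without cells that carried more than 1 TRB it was 1.46 and the call was lost. TRBV19 made up 6.18% and 6.47% of cluster 1 clonotypes of Teff, 7.89% and 5.26% of Tpex clonotypes and 12.3% and 9.19% of Tex clonotypes. In the control, 8 of the 45 cluster 6 clonotypes found in Tpex or Tex used it (17.8%), and 21 of the 247 not found there (8.50%). With anti-CD137 these were 6 of 66 (9.09%) and 44 of 506 (8.70%).

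The other called segments were alpha V genes on chromosome 14, each in 1 treatment. In the control, TRAV17 (chr14:53806639-53807115) was in 6 clonotypes, 2.05% (0.758 to 4.42%) against 0.530%, and TRAV7-6 (chr14:53716716-53717291) in 7, 2.40% (0.969 to 4.88%) against 0.780%. With anti-CD137, TRAV7-3 (chr14:53443249-53443839) was in 20, 3.50% (2.15 to 5.35%) against 1.67%. In the control TRAV7-3 was in 4 clonotypes of cluster 6 and not above the other Teff cells, at 1.37% against 1.56%. The alpha locus of this strain holds near-identical copies of many V genes, so a call among copies is uncertain. The TRAV17 call was lost over cells and the TRAV7-6 call without cells of more than 1 TRB. TRBV29 and TRBJ2-3 with anti-CD137 had shares of 8.04% against 5.55% and 5.77% against 8.46%, with intervals apart but a factor under 1.5. TRBJ2-3 in the control had 5.48% against 8.63%, past the factor but with overlapping intervals. TRBJ2-3 was called lower over cells in both treatments, and with anti-CD137 also without cells of more than 1 TRB.

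**Figure D4:**
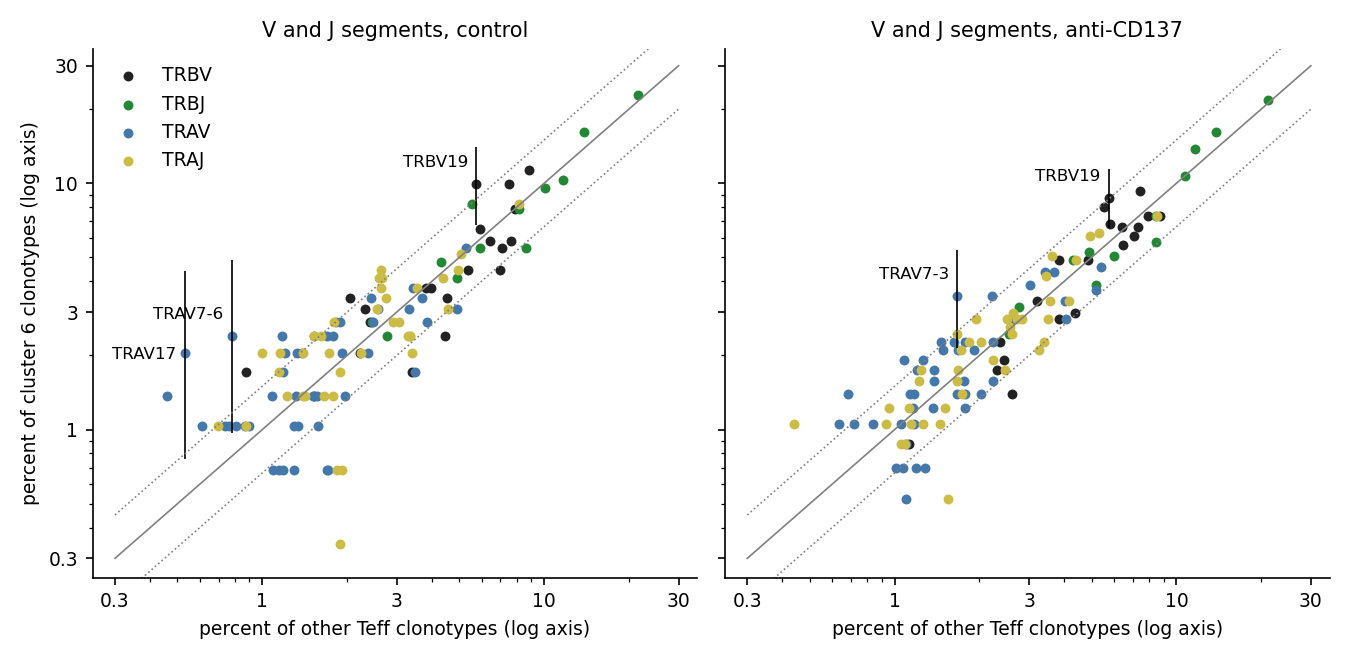
Percent of cluster 6 clonotypes (y axis) against percent of other Teff clonotypes (x axis) that use each V or J segment, both on log axes, for the control (left) and anti-CD137 (right); the solid line marks equal shares, the dotted lines a factor of 1.5, and bars the exact 95% intervals of the called segments. In the control 3 segments with no cluster 6 clonotype cannot be drawn; most points lie between the dotted lines and TRBV19 lies above in both panels.

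The 3 most used TRBJ segments and the leading TRAV were the same in cluster 6 and in the other Teff cells, while the leading TRBVs were so in part. TRBJ2-7 led in both treatments, with 22.9% (control) and 21.7% (anti-CD137) of cluster 6 clonotypes against 21.6% and 21.2% of the others, and TRBJ2-1 followed with 16.1% in both, against 13.9% and 13.8%. Next came TRBJ2-5, with 10.3% and 13.8% of cluster 6 clonotypes. The most used TRBV was TRBV12-2+TRBV13-2 in the control (11.3%, against 8.83%), ahead of TRBV12-2 and TRBV19 with 9.93% each. With anti-CD137 it was TRBV3 (9.27%, against 7.40%), ahead of TRBV19 and TRBV29, of which the latter had 5.55% in the other Teff cells. TRAV12-2 led the alpha V genes, with 5.48% and 4.55% of cluster 6 clonotypes against 5.28% and 5.40%. It was followed in the control by TRAV16N (3.77%), TRAV12N-2 and TRAV13-1 (3.42% each, against 2.44% and 3.69%), and with anti-CD137 by TRAV16N and TRAV6D-6 (4.37% each). In cells rather than clonotypes TRBV19 took 9.97% and 9.30% of cluster 6, and its largest clone there had 4 and 9 cells.

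The CDR3s of cluster 6 were built much like those of other Teff cells. TRB CDR3s averaged 13.8 residues in cluster 6 in both treatments (SD 1.45 in the control and 1.38 with anti-CD137, over clonotypes) and 13.9 in the others. The bases between the V and J matches averaged 9.84 ± 3.92 (SD, 282 clonotypes) and 9.72 ± 3.82 (555 clonotypes) in TRB, against 9.88 and 10.0. In TRA they averaged 2.72 and 2.64 against 2.75 and 2.73. All these differences were small beside the spread over clonotypes, which does not measure the error of a mean. Expanded clonotypes of cluster 6 averaged 10.4 (control) and 9.32 (anti-CD137) such bases in TRB. Invariant alpha chains of other T cell types were rare. The TRAV11 and TRAJ18 chain of natural killer T cells was in 1 control (0.277%) and 2 anti-CD137 cells (0.233%). Among other paired Teff cells it was in 0.0176% and 0.0723%. The TRAV1 and TRAJ33 chain of mucosal-associated invariant T cells was in 0 of 361 and 0 of 860, against 0.0117% and 0.0413%.

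Most TRB CDR3s of cluster 6 were seen in 1 treatment only. The overlap was not counted in other Teff cells, and the treatments were given to different mice. It is therefore not shown to be particular to cluster 6. Among 817 TRB amino acid CDR3s, 5 occurred in cluster 6 of both treatments, each in 1 cell per treatment, and 0 of the 5 came with the same TRA. The same nucleotide TRB CDR3 was found in both treatments for 2 of them, shown here because they recur between different mice.
TRBV15, both treatments: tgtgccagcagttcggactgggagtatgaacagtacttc
TRBV29, both treatments: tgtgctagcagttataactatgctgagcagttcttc
Within a treatment, 2 of 285 control and 7 of 537 anti-CD137 TRB amino acid CDR3s of cluster 6 were encoded by more than 1 nucleotide CDR3.

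The cell cycle columns gave a divided picture. Like the clusters, they come from the gene values, so they describe cluster 6 and do not test it. Phase S or G2M was called in cluster 6 for 388 of 569 cells (68.2%, 64.2 to 72.0%) in the control. With anti-CD137 it was called for 719 of 1299 (55.4%, 52.6 to 58.1%). In clusters 0 and 2 these phases were called for 50.1% and 39.6% of cells, and in cluster 1 for 67.8% and 66.9%. The phase is given to any cell whose S or G2M score is above 0, so a call does not by itself show a cycling cell. With no counts per gene, equal depth could not be set, so cells were compared in bins of depth. Within 8 bins of UMIs per cell, the share was higher in cluster 6 than in clusters 0 and 2 in 8 of 8 bins in both treatments. By a score above 0.2, used next, this was so in 5 of 8 bins in the control and 8 of 8 with anti-CD137.

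High scores were much rarer. A score above 0.2, a value set after the data were seen, was reached by 13 control cells (2.28%, 1.22 to 3.88%) and 87 anti-CD137 cells (6.70%, 5.40 to 8.20%) of cluster 6, with 11 and 34 cells within 0.05 of it. In cluster 1 it was reached by 20.5% and 40.5% of Teff cells, and in clusters 0 and 2 by 0.997% and 0.794%. The treatments stood in opposite orders by the 2 measures, the control higher by phase and anti-CD137 higher by score. Above 7000 UMIs the score share in cluster 6 was 14.3% (4 of 28 cells) in the control and 41.1% (44 of 107) with anti-CD137.

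**Figure D5:**
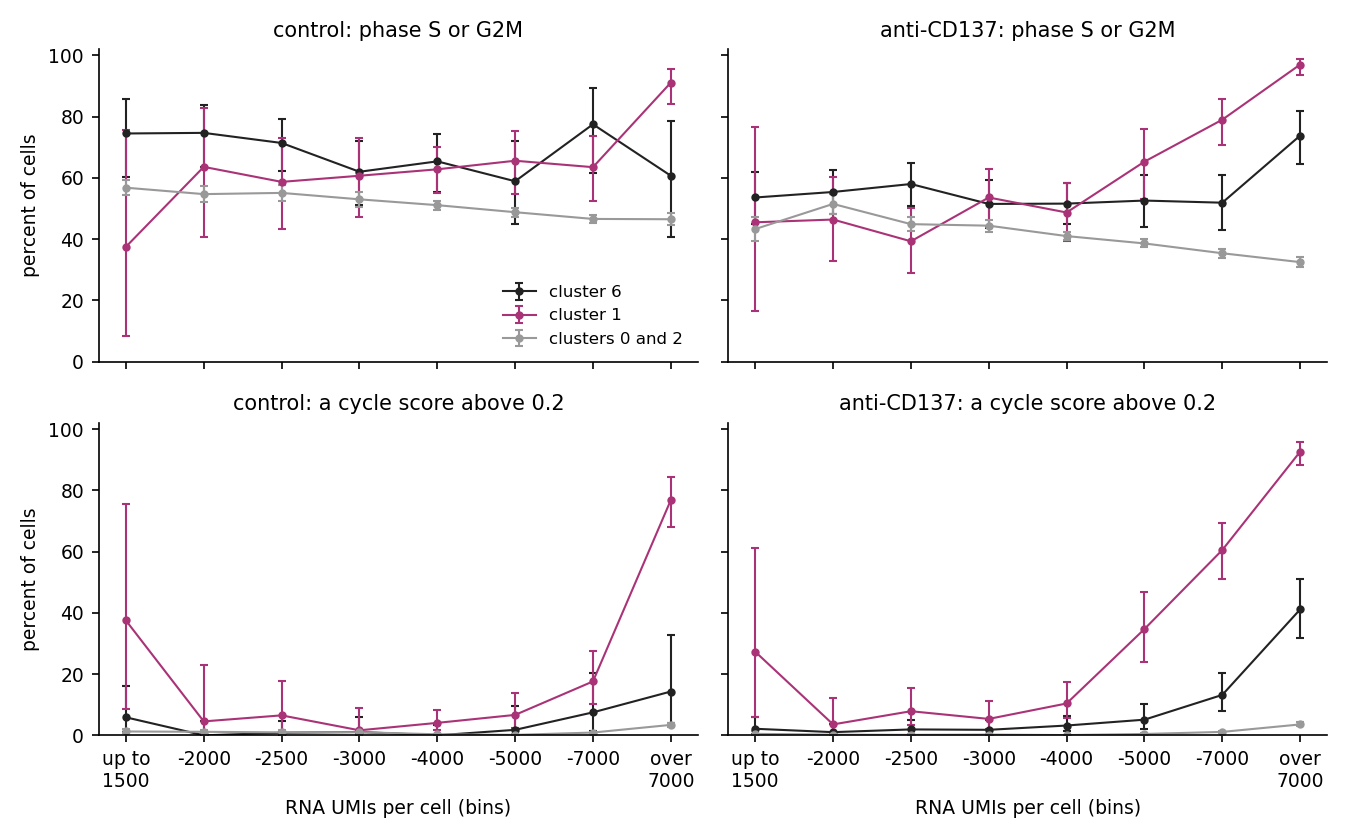
Percent of Teff cells (y axes) called in phase S or G2M (top) or with a cycle score above 0.2 (bottom), by bins of RNA UMIs per cell (x axis), for cluster 6, cluster 1 and clusters 0 and 2, in the control (left) and anti-CD137 (right), with exact 95% intervals. Phase shares of cluster 6 lie above those of clusters 0 and 2 in all bins; score shares of cluster 6 reach 41.1% in the deepest anti-CD137 cells, and those of cluster 1 are at 34.7% with anti-CD137 from 4000 to 5000 UMIs and 60.5% from 5000 to 7000.

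With anti-CD137, the same clones had high scores more often in their cluster 1 cells than in their cluster 6 cells. Scores and clusters come from the same gene values, so this split is a description and does not test a difference between clusters. Clonotypes with Teff cells in both clusters numbered 20 in the control and 63 with anti-CD137. In the control, 6 of their 31 cluster 1 cells (19.4%, 7.45 to 37.5%) and 2 of their 45 cluster 6 cells (4.44%, 0.543 to 15.1%) had a score above 0.2, with overlapping intervals. With anti-CD137, 54 of 99 cluster 1 cells (54.5%, 44.2 to 64.6%) and 17 of 177 cluster 6 cells (9.60%, 5.70 to 14.9%) did. Median UMIs were 4561 in the former and 3224 in the latter, and their part in this was not tested. Expanded and unexpanded cluster 6 cells had like shares, 7.25% and 7.65% with anti-CD137. Anti-CD137 cells whose clonotype was found in Tpex or Tex had such a score in 1 of 131 cells (0.763%, 0.0193 to 4.18%), and those not found in 63 of 729 (8.64%, 6.70 to 10.9%), at median UMIs of 2245 and 3376. In the control these were 1 of 67 and 6 of 294 cells.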

How the data were processed

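Cells and their clusters came from the deposited cell table, which gives per cell the counts of UMIs and of genes, the percent of mitochondrial and ribosomal protein UMIs, 2 cell cycle scores, a phase and a cluster number, under headers of the kind Seurat writes. The deposited TCR table gives per contig the chain, segments, CDR3 and the counts of UMIs and reads (192524 contigs of 97217 barcodes). The percent and score columns were made by the authors. Cell Ranger 3.0.2, Seurat 4.0.0 and the build mm10 are named in the submitters' processing notes. Filters and the treatment of doublets are not given in the sources used here, and no doublet caller was run, since no gene values were used. Cells with more than 1 TRB made up 5.82% and 11.0% of paired cluster 6 cells (control, anti-CD137) and 16.0% and 17.9% of other paired Teff cells.

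Library and barcode together linked contigs to cells, and the TRA and the TRB with most UMIs were kept per cell. Clone size was counted over all paired cells of the same Teff library, and sharing was searched in the 10041 control and 4471 anti-CD137 paired Tpex cells and the 7778 and 4717 paired Tex cells. Each group has 1 library, so no test was run. Shares have exact Clopper-Pearson 95% intervals. Expected values of draws were computed from the hypergeometric distribution, and both these and the segment calls were tested on simulated data. Segment positions are from GENCODE M21.

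The cells, clonotype definition, segment rule and alternatives were chosen with earlier results of these data known; alternatives changed the clonotype definition, the cells kept, the number of cells searched and the sizes asked for, and 3 were added after the data were seen. Named clonotypes were the 5 with most cluster 6 cells per treatment and the 5 with most among those found in both Tpex and Tex, with ties broken by total cells. Named segments were those called and the 3 most used TRBV, TRBJ and TRAV. TRB CDR3s found in both treatments were named too. TRBV29 with anti-CD137 is among the most used, while TRBJ2-3 was named after its values were seen. Scripts used Python 3.11.15, pandas 2.3.3, numpy 2.4.6, scipy 1.17.1 and matplotlib 3.10.9.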

Additional observations from a re-analysis of the deposited data

Results flagged for a closer look

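The treatment difference in sharing had opposite signs in the 2 subsets searched. The share of cluster 6 cells with a clonotype in Tpex differed by -4.67 percentage points (anti-CD137 minus control), and the share with a clonotype in Tex by 4.71. With 1 library per group the difference between these values was not tested.

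TCR barcodes that are not in the cell table also carried cluster 6 clonotypes of their own treatment. In the control these were 5 of 455 paired Teff barcodes (1.10%), 115 of 1218 Tpex barcodes (9.44%) and 11 of 233 Tex barcodes (4.72%). With anti-CD137 they were 13 of 642 Teff barcodes (2.02%), 219 of 7452 Tpex barcodes (2.94%) and 113 of 1279 Tex barcodes (8.84%). In the libraries of the other treatment the count was 0 of all of these, which allows at most 0.0403% in anti-CD137 Tpex and 1.29% in control Tex. With these barcodes added to the search, 17.5% of control and 13.3% of anti-CD137 cluster 6 cells had a clonotype in Tpex, and 8.31% and 13.6% one in Tex.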

How the results depend on the processing

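Of 122 values recomputed, 74 stayed inside the reported interval (for counts of segments, within a factor of 1.5) and 48 did not. Values are given with the control first. The expanded share, reported as 33.5% and 52.9%, was 46.3% and 61.3% by TRB alone, 13.4% and 38.3% in cells deeper than their library's median, 22.4% and 38.5% with at least 3 cells asked for, and 22.9% in the control where chains needed 5 TRB and 3 TRA UMIs (the UMI minimum below). The draw of equal numbers, 29.1% and 34.5%, gave 39.3% and 40.9%, 8.25% and 17.1%, 18.6% and 19.6%, and 17.7% and 25% under these in order. Anti-CD137 was higher in 9 of 9 alternatives for both, with overlapping intervals in all 9 draws. Sharing with Tpex was 18.7% with anti-CD137 by TRB alone, 5.40% there with the UMI minimum, 7.22% and 2.48% above the median, 9.14% and 6.86% with at least 2 cells asked for in Tpex, 11.0% in the control with equal numbers of paired cells searched, and 7.52% with anti-CD137 per clonotype. The control was higher in 10 of 12 alternatives, the exceptions being TRB alone and equal numbers searched. Sharing with Tex was 9.71% with anti-CD137 with the UMI minimum, 5.15% and 3.19% above the median, 4.99% and 9.30% with at least 2 cells, and 9.79% with anti-CD137 per clonotype. Anti-CD137 was higher in 10 of 12, the exceptions being cells above the median and the UMI minimum. The share of expanded Teff cells in cluster 6 was 9.08% and 29.8% by TRB alone, 14.6% and 39.3% above the median, 50.6% and 67.6% with at least 3 cells, 22.9% in the control without cells of more than 1 TRB and 53.6% with anti-CD137 with the UMI minimum. The cluster 6 share of Teff cells was 4.25% with anti-CD137 in paired cells, 0.857% and 2.65% above the median, and 1.70% and 2.89% once per clonotype and cluster. In the last 2 results anti-CD137 was higher in all 9 and all 3 alternatives. The phase share was 58.8% with anti-CD137 above the median, and with the score in its place 2.28% and 6.70%. Counting cells called 11 and 12 segments in place of 3 and 2, out of a number compared that was not recorded. Single clones weigh more there, and TRBJ2-3 is called lower in both treatments. A factor of 2 left 1 with anti-CD137. TRBV19 missed the factor of 1.5 with anti-CD137 without cells of more than 1 TRB (1.46), TRAV7-6 lost its call there too (2.0), TRAV17 lost its call over cells (3.15), and a factor of 2 ended both TRBV19 calls (1.73 and 1.52). The cause of the other shifts was not tested. The score in place of the phase and the search with barcodes outside the cell table were added after the data were seen. No paired analysis was possible because each group has 1 sample.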

Other observations

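Cluster 6 cells had more TRB UMIs for their depth than the main Teff clusters. The median was 2.55 TRB UMIs per 1000 RNA UMIs in the control and 2.96 with anti-CD137, against 1.93 and 2.08 in clusters 0 and 2 and 2.70 and 2.67 in cluster 1. Taken singly, cluster 0 had 2.20 and 2.44, and cluster 2 had 1.69 and 1.80. Without regard to depth, the median TRB UMIs per paired cell were 8 and 10 in cluster 6 and 9 and 9 in clusters 0 and 2. The chain UMIs are from the TCR libraries and the RNA UMIs from the gene expression libraries. The quartiles of cluster 6 were 1.61 and 3.48 in the control and 1.89 and 4.51 with anti-CD137, and those of clusters 0 and 2 were 1.24 and 2.87, and 1.34 and 3.11.

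A recurring TRB came with the same TRA more often in cluster 6 than in clusters 0 and 2. Among cells of clusters 0 and 2 whose TRB recurred there, the other cells with that TRB had the same TRA in 30.4% (control) and 24.3% (anti-CD137) of cases, where cluster 6 had 91.2% and 85.1%. Clusters 0 and 2 had 15632 and 17845 paired cells, against 361 and 860 in cluster 6, and few of them were expanded. Cell numbers were not made equal, so these shares do not show a difference in how chains pair.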
